A study of Mus musculus with 16 samples.

Results

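The genes described here are 10 transcripts of simple epithelia and of the ovarian surface: the keratins Krt8, Krt18, Krt7 and Krt19, the uroplakins Upk3b and Upk1b, mesothelin (Msln), the membrane glycoprotein Gpm6a, E-cadherin (Cdh1) and the receptor Lgr5. They were chosen by name, and every probe set annotated to one of them alone was taken, which gave 18 of the 34945 probe sets with a single gene symbol. All 10 passed the filter on low signal and were among the 12172 genes tested. They were measured in cultured ovarian follicles of C57BL/6Tac mice, in a study that asked which transcripts differ when follicles are exposed to anti-Müllerian hormone (AMH), a hormone that granulosa cells of small follicles secrete. Preantral to small antral follicles from 8 mice were pooled per experiment, split between both arms and kept singly in drops, and each array held the RNA of 6 to 9 of them. The 4 groups of 4 arrays were follicles with 50 ng/ml recombinant AMH for 24 h, untreated controls at 24 h, follicles with 50 ng/ml AMH for 12 h, and untreated controls at 12 h. All 4 groups, controls included, were cultured with 80 IU/L follicle-stimulating hormone and 10 IU/L luteinizing hormone, and all came from females of this strain with no other genotype named. The age is given as 8 weeks for each sample and as a span of 6 to 8 weeks for the study.

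Keratins are the intermediate filaments of epithelial cells and are built from pairs of a type I and a type II protein. Krt8 (type II) pairs with Krt18 (type I) in simple epithelia, where Krt7 (type II) and Krt19 (type I) are also common. The ovary is covered by a single layer of mesothelium-like cells, the ovarian surface epithelium, in which keratins, uroplakins and mesothelin are used as markers, and in which Lgr5 marks a progenitor population in mice. Cdh1 joins epithelial cells to each other and is also made by mouse oocytes, and Krt8 and Krt18 occur in other ovarian cells as well. Signal from whole follicles therefore need not come from surface cells, and in such bulk RNA fewer cells of a type and less RNA per cell cannot be told apart.

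Krt8 and Krt18 lie close together on chromosome 15, on opposite strands, and they are the pair whose signals fell between both times in both arms, so the starts of these genes are shown, with Krt7 of the same chromosome beside them. Krt8 spans chr15:101996711-102004342 on the minus strand, Krt18 chr15:102028216-102032026 and Krt7 chr15:101412403-101427806, both on the plus strand. Each sequence runs 5′ to 3′ along the strand of its gene, over the 250 bases before the annotated start and the first 30 bases after it, and comes from RefSeq on build GRCm38.p6. Capitals mark matches to TATAA (the core of a TATA box), GGGCGG (a GC box) and CACCTG (an E-box), each searched on both strands.
Krt8, chr15:102004313-102004592, minus strand: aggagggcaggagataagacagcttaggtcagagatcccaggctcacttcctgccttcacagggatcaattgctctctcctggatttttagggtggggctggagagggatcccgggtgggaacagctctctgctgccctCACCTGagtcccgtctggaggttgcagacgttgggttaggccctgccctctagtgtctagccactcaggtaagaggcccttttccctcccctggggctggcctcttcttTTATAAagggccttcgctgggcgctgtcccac
Krt18, chr15:102027966-102028245, plus strand: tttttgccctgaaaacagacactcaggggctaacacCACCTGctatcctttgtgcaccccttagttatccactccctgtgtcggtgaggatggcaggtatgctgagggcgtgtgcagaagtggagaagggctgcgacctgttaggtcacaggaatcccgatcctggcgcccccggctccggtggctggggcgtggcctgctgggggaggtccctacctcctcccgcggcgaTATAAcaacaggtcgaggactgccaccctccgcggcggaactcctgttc
Krt7, chr15:101412153-101412432, plus strand: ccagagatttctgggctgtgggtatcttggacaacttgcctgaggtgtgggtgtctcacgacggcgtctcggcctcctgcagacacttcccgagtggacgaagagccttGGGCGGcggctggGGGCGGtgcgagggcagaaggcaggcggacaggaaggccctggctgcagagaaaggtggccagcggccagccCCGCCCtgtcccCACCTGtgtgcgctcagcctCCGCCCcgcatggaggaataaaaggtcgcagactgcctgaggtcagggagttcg
Krt8 held TATAA and, overlapping it on the other strand, TTATA, starting 1 and 2 bases before the annotated start, and Krt18 held TATAA 19 bases before its start. Krt7 held no TATAA in its window and 4 GC boxes. Each of the 3 windows held one CACCTG. Among 32851 promoters of the same window, 24.0% held TATAA, 34.7% GGGCGG and 19.1% CACCTG on either strand. The AP-1 motif TGANTCA, found in 7.46% of all promoters, had no match in these windows. The motif letters were chosen after the sequences had been seen, and a match describes letters only. Of the 10 genes, 5 had promoter entries.

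Values are signal intensities, used as log2(signal + 1.46), and changes are differences on that scale, which understates the change of dim genes. The median signal per array lay between 27.8 and 40.2, and arrays of one group correlated at 0.923 to 0.977. Precision is limited by the small number of arrays, 4 in each group. Markers of the labelled tissue were present: 10 of 10 granulosa genes on the array, 5 of 6 theca genes and 15 of 15 oocyte genes passed the filter. The mean signal of the oocyte genes ranged over 5.04-fold within the controls at 12 h. Of 14 other surface epithelium and mesothelium genes 13 passed the filter, and of 8 oviduct and ciliated epithelium genes 2 did. At 24 h the arrays of pairs 1 and 4 deviated from their group means in opposite directions, with correlations of -0.437 and -0.287. AMH effects whose sign turned without those pairs are therefore also given. Both arms of a pair came from one pool, while nothing in the labels says that arrays at 24 h and 12 h shared animals.

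**Figure D1:**
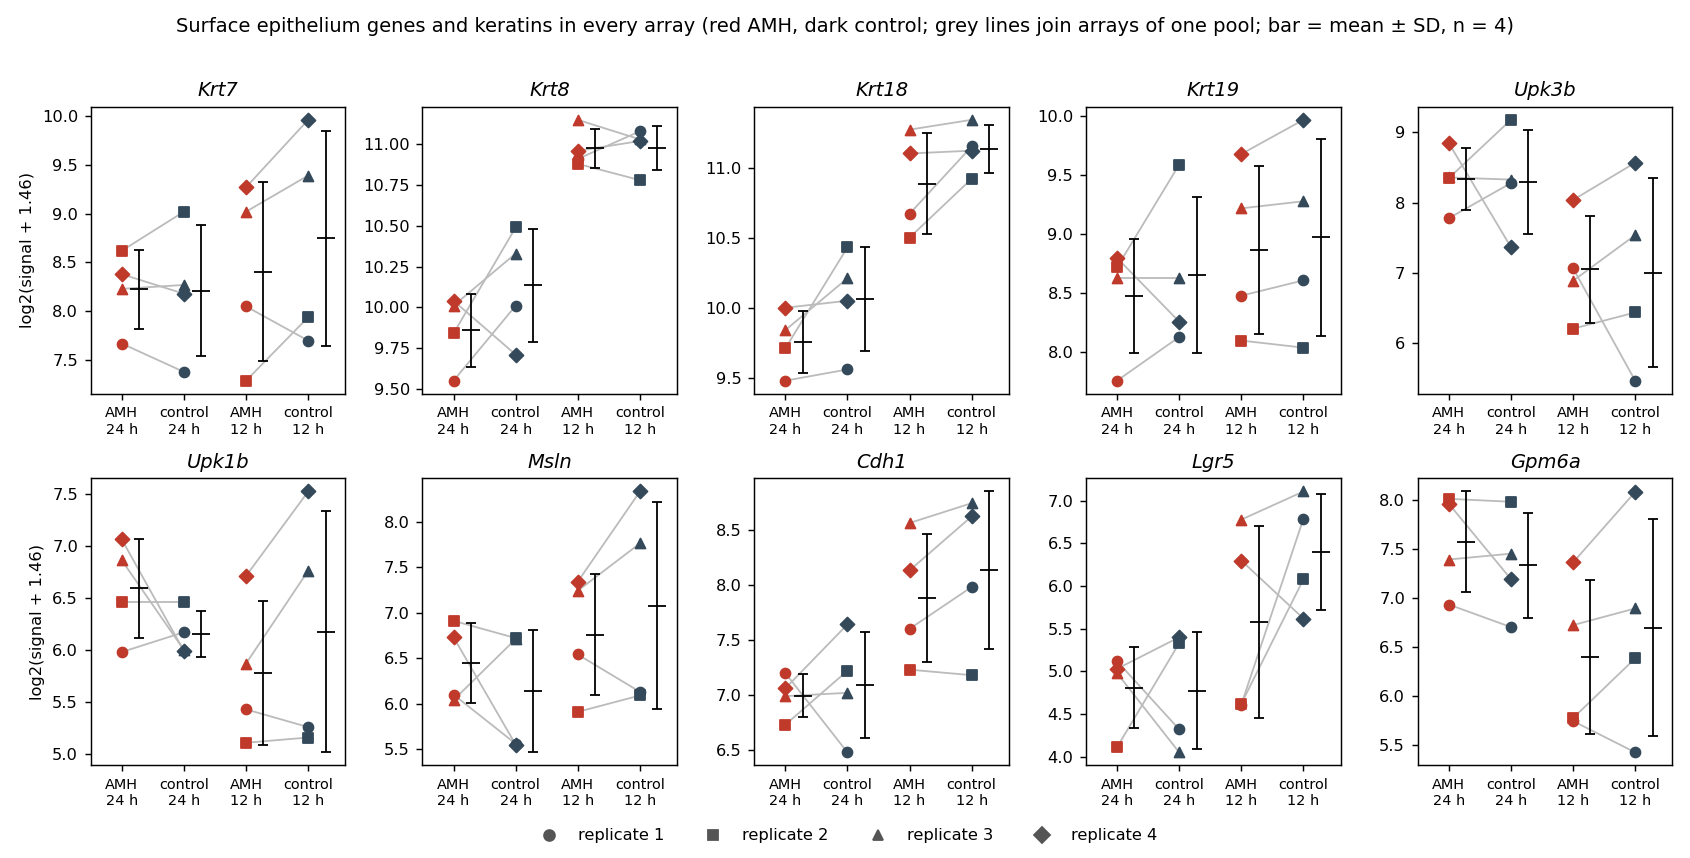
Log2(signal + 1.46) of the 10 genes in each of the 16 arrays, grouped as AMH 24 h, control 24 h, AMH 12 h and control 12 h; points are arrays, bars are group means ± SD (n = 4) and grey lines join both arrays of a pool. Krt8 and Krt18 separate by time with no overlap in either arm, while Krt7, Krt19, Upk3b, Upk1b, Msln and Gpm6a spread widely among the arrays at 12 h.

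The keratin pair Krt8 and Krt18 had less transcript at 24 h than at 12 h of culture, both with AMH and without it. Both arms at a given time came from the same pools, so the falls in the arms are not independent of each other. Krt8 was 2.17-fold lower at 24 h in AMH-treated follicles and 1.79-fold lower in controls, and Krt18 was 2.18-fold lower with AMH and 2.1-fold lower in controls. Krt8 had signals of 748, 914, 1032 and 1048 with AMH at 24 h and 1031, 1433, 1286 and 837 in controls at 24 h. At 12 h it had 1919, 1883, 2271 and 1989.9 with AMH and 2157, 1762, 2094 and 2069 in controls. Every array at 24 h lay below every array at 12 h, in both arms.

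For Krt8 the 24 h minus 12 h change was -1.12 (SE 0.15, limma adjusted p = 0.000436) with AMH and -0.84 (SE 0.15, adjusted p = 0.00133) in controls. The other 2 probe sets of Krt8 gave -1.24 and -1.22 with AMH and -1.03 and -1.06 in controls, all past the adjusted threshold of 0.05. Krt18 had signals of 714, 836, 918 and 1025 with AMH at 24 h and 754, 1378, 1183 and 1061 in controls at 24 h. At 12 h Krt18 had 1632, 1447, 2474 and 2193 with AMH and 2276, 1933, 2593 and 2226 in controls. Its arrays too did not overlap between times in either arm, and of all genes 7.65% with AMH and 10.9% in controls had no overlap and were lower at 24 h. The change of Krt18 was -1.13 (SE 0.19, adjusted p = 0.00199) with AMH and -1.07 (SE 0.19, adjusted p = 0.00126) in controls. Both genes stayed past the threshold under each alternative setting run, the highest adjusted p being 0.00954.

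In AMH-treated follicles 2 of the 10 genes, Krt8 and Krt18, passed the test between times, both lower at 24 h, where 3.94% of all genes tested were called lower and 8.28% (1008 genes) called in either direction. That count of 1008 was 516 without AMH replicate 3 at 12 h, 630 without replicate 4 at 12 h, 588 without replicate 2 at 24 h and 564 with median centring. In controls 4 of the 10 passed, all lower at 24 h (Krt8, Krt18, Cdh1 and Lgr5), against 9.19% of all genes called lower and 19.1% in either direction. The median change of the 10 was -0.35 with AMH and -0.69 in controls, and the median of all genes tested was -0.02 with AMH and -0.01 in controls. Over the same hours granulosa markers rose, 4 of 10 with AMH and 7 of 10 in controls, with medians of 0.89 and 1.09, and stroma and smooth muscle genes rose, 3 of 10 with AMH and 6 of 10 in controls. Called granulosa genes with the smallest p included Foxl2, Esr2 and Fshr in both arms, and called stroma genes Dpt, Dcn and Lum in both arms. Fshr had mean log2 signals of 3.9 ± 0.92 at 12 h and 6.15 ± 0.5 at 24 h in controls (SD, n = 4 each). Its control mean at 12 h was under the filter of 4.18, which Fshr passed through its 24 h arrays. With AMH its 12 h mean was 4.22, close to that filter. The Fshr calls are therefore given as a description. Among 5 theca markers Cyp17a1 was called higher with AMH and Hsd3b1 in controls. Cyp17a1 had mean log2 signals of 3.69 ± 0.9 at 12 h and 6.3 ± 0.73 at 24 h with AMH (SD, n = 4 each). Its 12 h mean with AMH was under the filter of 4.18, so the Cyp17a1 call too is a description. Of 10 endothelial markers, 6 were below 0 with AMH (median -0.12, none called) and 10 in controls (median -0.60), where Emcn was called lower. Of 7 immune markers, 2 were below 0 with AMH (median 0.13) and 7 in controls (median -0.18). Csf1r, the macrophage growth factor receptor, was called lower in both arms and Cd74 in controls. Oocyte genes had medians of -0.23 with AMH and -0.35 in controls, with none of 15 called. The mean log2 signal of the granulosa list was 9.23 ± 0.45 with AMH and 9.14 ± 0.29 in controls after 24 h, and 8.31 ± 0.56 with AMH and 8.13 ± 0.55 in controls after 12 h (SD, n = 4 each). The part of these shifts in the signals of the 10 genes was not tested.

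**Figure D2:**
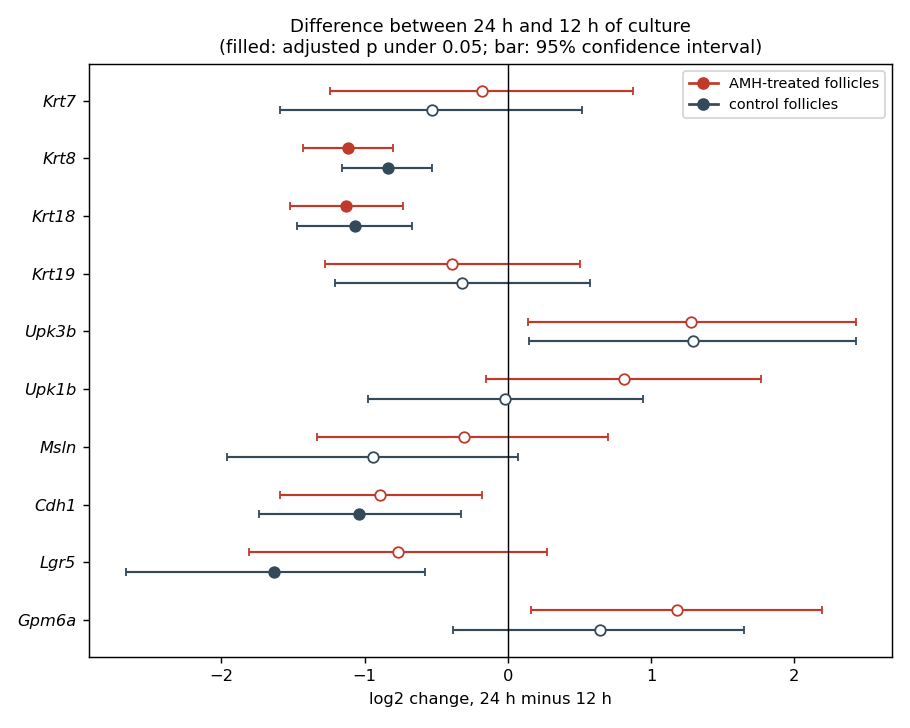
Difference between 24 h and 12 h of culture, as log2 change with its 95% interval, for each of the 10 genes in AMH-treated and in control follicles. The changes of Krt8 and Krt18 lie between -1.13 and -0.84 in both arms with 95% intervals within -1.52 to -0.53, and Upk3b lies at 1.28 and 1.29 with wider intervals.

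The other pair of simple-epithelium keratins, Krt7 and Krt19, did not pass the test between times. Krt7 had signals of 203, 391, 299 and 332 with AMH at 24 h and 166, 517, 308 and 289 in controls at 24 h. At 12 h it had 264, 154, 519 and 616 with AMH and 207, 244, 669 and 997 in controls. Arrays at 12 h spanned those at 24 h in the AMH arm, and the 12 h replicates 3 and 4 were the highest in both arms. The Krt7 change was -0.18 (SE 0.50, adjusted p = 0.873) with AMH and -0.53 (SE 0.50, adjusted p = 0.487) in controls, with 95% intervals of -1.24 to 0.87 and -1.59 to 0.52. Krt19 had 215, 421, 393 and 445 with AMH at 24 h and 279, 771, 394 and 305 in controls at 24 h. At 12 h Krt19 had 356, 272, 594 and 819.6 with AMH and 390.2, 262, 620.00 and 1000.4 in controls. Again both times overlapped, and 12 h replicates 3 and 4 were high. Its change was -0.39 (SE 0.42, adjusted p = 0.631) with AMH and -0.32 (SE 0.42, adjusted p = 0.632) in controls.

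The uroplakins are membrane proteins named after the urothelium, where they form plaques, and Upk1b is a tetraspanin. Upk3b had signals of 219, 325, 327 and 459.8 with AMH at 24 h and 310.1, 580.4, 321 and 164 in controls at 24 h. At 12 h it had 133, 72.5, 117 and 261 with AMH and 42.8, 85.2, 185 and 378 in controls. Most arrays at 24 h were above most at 12 h, but the groups overlapped in both arms. The change of Upk3b was 1.28 (SE 0.54, adjusted p = 0.156) with AMH and 1.29 (SE 0.54, adjusted p = 0.104) in controls, neither past the threshold. Leaving out control replicate 4 at 12 h, the highest of its group, gave 1.81 (limma adjusted p = 0.0217) in controls. Across single control arrays left out the change ranged from 0.78 to 1.81. No other setting called Upk3b in controls, and over the settings the limma adjusted p reached 0.301. A second probe set of Upk3b gave 1.43 with AMH and 1.34 in controls. Upk1b changed by 0.81 (SE 0.45, adjusted p = 0.298) with AMH and -0.02 (SE 0.45, adjusted p = 0.979) in controls. In the probe set used its signals lay between 33.0 and 182 over all arrays. Its other probe sets, with signals down to 10.8, gave 0.91, 0.72 and 0.8 with AMH and 0, 0.14 and 0.24 in controls. None of these changes passed the threshold. None of 3 other uroplakins listed passed the filter on low signal.

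Msln, a cell-surface protein of mesothelium, and Gpm6a, a membrane glycoprotein best known from neurons, also failed to pass between times. At 24 h Msln had 67.1, 119, 64.3 and 105 with AMH and 45.8, 104, 103 and 45.3 in controls. At 12 h Msln had 91.4, 58.6, 150.1 and 161 with AMH and 68.7, 66.9, 215 and 320.2 in controls. The times overlapped in both arms. Its change was -0.31 (SE 0.48, adjusted p = 0.752) with AMH and -0.94 (SE 0.48, adjusted p = 0.181) in controls. Gpm6a had 120.3, 256, 166 and 247 with AMH at 24 h and 102, 252, 173 and 144 in controls at 24 h. At 12 h Gpm6a had 51.9, 53.0, 104 and 163 with AMH and 41.5, 82.1, 117 and 269 in controls. The times overlapped in both arms, the 12 h replicate 4 being the highest of its group each time. The Gpm6a change was 1.18 (SE 0.48, adjusted p = 0.141) with AMH and 0.64 (SE 0.48, adjusted p = 0.382) in controls.

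Cdh1 and Lgr5 were lower at 24 h in controls, with larger standard errors than the keratin pair. Cdh1 had signals of 146, 105, 125 and 132 with AMH at 24 h and 87.7, 148, 129 and 198 in controls at 24 h. At 12 h it had 192, 149, 376 and 279 with AMH and 251, 144, 426 and 392 in controls. With AMH every 24 h array was below every 12 h array, while in controls replicate 2 at 12 h fell among the 24 h arrays. The Cdh1 change was -0.89 (SE 0.33, adjusted p = 0.11) with AMH and -1.04 (SE 0.33, adjusted p = 0.0389, 2.06-fold lower) in controls. The control call was lost without replicate 1, 3 or 4 at 12 h or without replicate 1, 2 or 3 at 24 h, the adjusted p then lying between 0.0551 and 0.118. It was also lost with every probe set tested alone and no filter (0.0513) and with only the control arrays fitted (0.0703). Since oocytes also make Cdh1, the mean log2 signal of 15 oocyte genes is given: 7.73 ± 0.70 with AMH and 7.87 ± 0.70 in controls after 24 h, and 7.97 ± 0.27 with AMH and 8.16 ± 0.96 in controls after 12 h (SD, n = 4 each). None of those 15 genes passed between times in either arm, and their part in the Cdh1 signal was not tested.

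Lgr5, a receptor for R-spondins that amplifies WNT signalling, was dim. It had signals of 33.3, 15.7, 30 and 31.2 with AMH at 24 h and 18.5, 38.7, 15.1 and 40.8 in controls at 24 h. At 12 h it had 22.9, 23.2, 108 and 77.4 with AMH and 109, 66.3, 137 and 47.7 in controls. With AMH replicates 1 and 2 at 12 h lay among the 24 h arrays, whereas in controls the times did not overlap. The Lgr5 change was -0.77 (SE 0.49, adjusted p = 0.374) with AMH and -1.63 (SE 0.49, adjusted p = 0.0299, 3.09-fold lower) in controls. The control call was lost without replicate 1 or 3 at either time, at adjusted p between 0.0716 and 0.0914, and with the mean of both Lgr5 probe sets (-1.14, adjusted p = 0.0966). Of the 8 tested genes of the Lgr5 receptor system, its R-spondin ligands, related receptors and partners, none passed between times in either arm, with medians of 0.03 with AMH and -0.02 in controls.

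Whether the change between times differed between arms was tested as the difference of the AMH effect, 24 h minus 12 h. None of the 10 genes passed by limma, 0% of all genes were called, and 687 of 12172 had an unadjusted p under 0.05. For the genes called in one arm only, the difference was 0.15 (95% interval -0.48 to 0.78, adjusted p = 0.978) for Cdh1 and 0.86 (95% interval -0.59 to 2.30, adjusted p = 0.944) for Lgr5. Krt8 differed by -0.27 (95% interval -0.70 to 0.15) and Krt18 by -0.06 (95% interval -0.45 to 0.33). Upk1b had the lowest p-value of the 10 in limma, with a difference of 0.83 (SE 0.37, limma adjusted p = 0.876).

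No transcript of the 10 passed the test between AMH-treated and control follicles at either time. At 24 h their changes lay between -0.30 and 0.44 with a median of 0.02, against 0.01 for all genes, and 0.0164% of all genes (2, with 496 at an unadjusted p under 0.05) were called by limma. At 12 h the changes lay between -0.82 and 0.05, 0% of all genes were called, and 788 had an unadjusted p under 0.05. At 12 h 9 of the 10 genes were below 0, with a median of -0.27, where 48% of all genes were below 0 and the median of all genes was 0.01. Several of the 10 varied together over the same pools, so their signs were not independent of each other. One of the 9, Krt8, was at 0.00 and turned to 0.01 with quantile normalization. The other surface epithelium and mesothelium genes had a median of -0.07 at 24 h and -0.32 at 12 h, with 8 and 12 of 13 below 0 and none called. Endothelial markers had a median of 0.27 at 24 h and -0.43 at 12 h, with 1 and 9 of 10 below 0 and none called. Stroma and smooth muscle genes were above 0 in 10 of 10 at 24 h (median 0.39) and in 6 of 10 at 12 h (median 0.38), and Dpt, which encodes the matrix protein dermatopontin, was called at 24 h (1.82, limma adjusted p = 0.048). Immune markers were above 0 in 7 of 7 at both times, with medians of 0.69 at 24 h and 0.10 at 12 h and none called. Oocyte genes were below 0 in 13 of 15 at 24 h and 14 of 15 at 12 h, with a median of -0.16 each time and none called. Granulosa and theca markers had medians of 0.10 and -0.18 at 24 h and of 0.20 and 0.00 at 12 h, with none called. Their part in the values of the 10 genes was not tested.

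Among the 10, Krt18 was the gene that differed the same way in every pair. AMH minus control was -0.08, -0.72, -0.36 and -0.05 in pairs 1 to 4 at 24 h and -0.48, -0.42, -0.07 and -0.02 at 12 h. All 8 pairs were thus lower with AMH, although several differences were close to 0. Of all genes, 0.197% were lower in all 8 pairs and 0.592% were higher in all 8. In all 4 pairs at 24 h, 3.44% of genes were lower and 5.95% higher. In all 4 pairs at 12 h, 7.71% were lower and 10.2% higher. Averaged over both times the Krt18 effect was -0.27 (SE 0.09, 95% interval -0.47 to -0.08), with an unadjusted p of 0.0103 and a limma adjusted p of 0.956, so it did not pass. Over the alternative settings, that without 24 h pairs 1 and 4 included, this average ranged from -0.39 to -0.21. The lowest limma adjusted p was 0.217. None of the 12172 genes was called in that average, and 585 had an unadjusted p under 0.05. Its partner Krt8 averaged -0.14 (SE 0.10, 95% interval -0.35 to 0.07). At 24 h Krt8 gave -0.28 (SE 0.14), and at 12 h it gave 0.00 (SE 0.14).

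**Figure D3:**
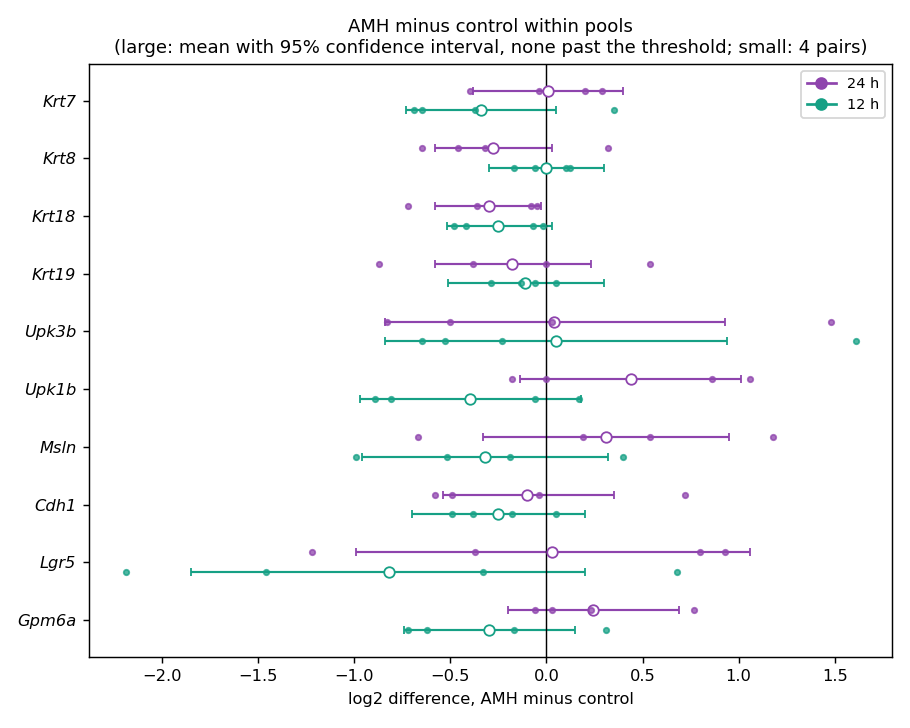
AMH minus control within each of the 8 pairs, as log2 difference, for each of the 10 genes at 24 h and at 12 h, with the fitted effect and its 95% interval. Krt18 lies below 0 in all 8 pairs, and pairs of Upk3b and Lgr5 spread on both sides of 0.

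The other 8 genes moved less evenly between pairs. Lgr5 had the lowest effect at 12 h, -0.82 (SE 0.46, adjusted p = 0.801), and its 4 pairs were -2.19, -1.46, -0.33 and 0.68. Upk3b pairs at 24 h were -0.50, -0.83, 0.03 and 1.48, and at 12 h 1.61, -0.23, -0.65 and -0.53, so both times held pairs of opposite sign. Krt7 and Krt19 averaged -0.16 (SE 0.13) and -0.14 (SE 0.13) over both times. Upk1b gave 0.44 (SE 0.26) at 24 h and -0.40 (SE 0.26) at 12 h, Msln 0.31 (SE 0.29) and -0.32 (SE 0.29), and Gpm6a 0.24 (SE 0.20) and -0.30 (SE 0.20). Without pairs 1 and 4 at 24 h, the 24 h effect turned to -0.40 for Upk3b, -0.24 for Msln, -0.22 for Krt7, -0.15 for Lgr5 and -0.02 for Gpm6a. The 95% interval at 24 h was -0.38 to 0.40 for Krt7 and -0.84 to 0.93 for Upk3b.

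The genes differed widely in the SD of their pool means, which also carries variation between both arrays of a pool. At 24 h the SD of the 4 pool means was 0.53 for Krt7, 0.50 for Krt19 and 0.49 for Gpm6a, against a median of 0.16 over all genes. At that time Msln had 0.42, Upk3b 0.33, Lgr5 0.3, Krt18 0.26 and Cdh1 0.22, and Upk1b and Krt8 had 0.20 each. The SD at 12 h was 0.98 for Krt7, 0.95 for Upk3b, 0.93 for Gpm6a, 0.92 for Upk1b, 0.89 for Msln and 0.77 for Krt19, against a median of 0.20 over all genes. Each of these 6 stood above the 97th percentile of all genes tested at 12 h. Lgr5, with an SD of 0.69 at 12 h, stood at percentile 95.4, and Cdh1, with 0.64, at 94.3. Krt8, with an SD of 0.11 at 12 h, stood at percentile 19.1, and Krt18, with 0.26, at 62.9. The SD of the 4 differences within pairs at 24 h was 1.02 for Lgr5 and Upk3b, 0.62 for Upk1b and 0.60 for Cdh1. At that time it was 0.31 for Krt7 and 0.37 for Gpm6a, against a median of 0.36. At 12 h it was 1.26 for Lgr5, 1.05 for Upk3b, 0.48 for Krt7 and 0.14 for Krt19, against a median of 0.28. The part of variation within pools in the SD of pool means was not tested. Pool 2 was highest at 24 h for Krt7, Krt19, Upk3b, Msln and Gpm6a, and narrowly for Krt18, at 10.07 against 10.03 in pools 3 and 4. Pools 3 and 4 were the highest at 12 h for 9 of the 10 genes, the exception being Krt8, at 11.09 in pool 3 and 10.99 in pools 1 and 4. That count has no background over all genes beside it, and some other cell types shared this order at 12 h. Endothelial markers had mean log2 signals of 6.54, 6.89, 8.08 and 7.36 over control replicates 1 to 4. Over AMH-treated replicates 1 to 4 they had 6.13, 6.46, 7.71 and 7.04. Stroma and theca lists were also highest in replicates 3 and 4 of both arms. Oocyte and immune lists were not so in both arms, and the granulosa list was lowest in replicate 3 (7.35 and 7.64). The number of follicles or surface cells in each pool was not measured here.

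**Figure D4:**
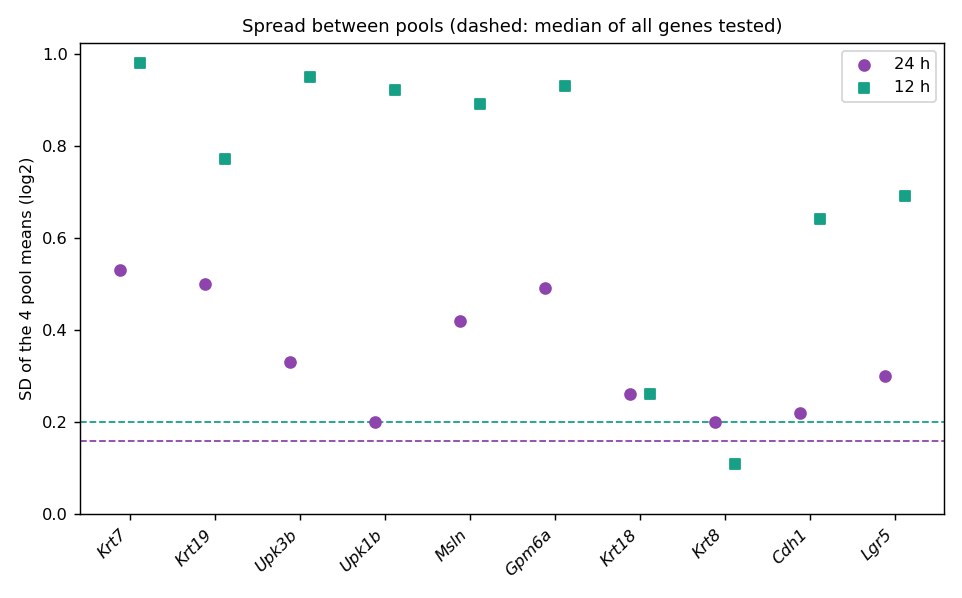
SD of the 4 pool means of log2 signal for each of the 10 genes at 24 h and at 12 h, with the median over all genes tested at each time as a dashed line. At 12 h Krt7, Upk3b, Gpm6a, Upk1b, Msln and Krt19 lie at 0.77 to 0.98, while Krt18 lies at 0.26 and Krt8 at 0.11, below the median of 0.20.

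The 6 genes with the highest SD of pool means at 12 h varied together, while Lgr5 and Cdh1, next in SD at 12 h, correlated less with them. Over deviations from the 4 group means in 16 arrays from 8 pools, the 10 genes give 45 pairs, and 19 of them had a Pearson r past an adjusted p of 0.05 by exact permutation of the pools within each time, all 19 positive. The smallest p that the 576 permutations can give is 0.00174. The share of pairs past the threshold among all genes tested was not computed, so the count of 19 has no background beside it. Krt7, Krt19, Upk3b, Upk1b, Msln and Gpm6a, grouped after their values were seen, held 14 of the 19, out of 15 pairs among them, with r between 0.823 and 0.926. Krt7 with Krt19 gave r = 0.926 and Spearman's rho = 0.915 (permutation p = 0.00174 each, adjusted p = 0.00977 for r and 0.0112 for rho). Without the 2 arrays farthest from the median, that r was 0.898, and it was 0.910 at 24 h alone and 0.946 at 12 h alone. Upk3b with Upk1b gave r = 0.894 and rho = 0.874 (permutation p = 0.00174 each, adjusted p = 0.00977 and 0.0112), with 0.738 at 24 h alone and 0.939 at 12 h alone. The 15 pairs were between 0.714 and 0.918 without 2 arrays, between 0.281 and 0.951 at 24 h alone and between 0.826 and 0.983 at 12 h alone.

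Krt8 and Krt18 tracked each other, with r = 0.679 and rho = 0.797 (permutation p = 0.00174 each, adjusted p = 0.00977 and 0.0112), and r was 0.784 without 2 arrays, 0.690 at 24 h and 0.793 at 12 h. Krt18 with Krt19 gave r = 0.754 (adjusted permutation p = 0.0411), Krt18 with Krt7 r = 0.730 (0.0368 adjusted, by permutation) and Krt8 with Krt19 r = 0.653 (0.0293 adjusted, by permutation). Cdh1 with Lgr5 gave r = 0.644 and rho = 0.700 (adjusted permutation p = 0.0411 and 0.0279). Upk3b with Lgr5 had the lowest r, -0.016. Arrays of a pair shared their pool, so these values describe variation between pools as well as between arrays.

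**Figure D5:**
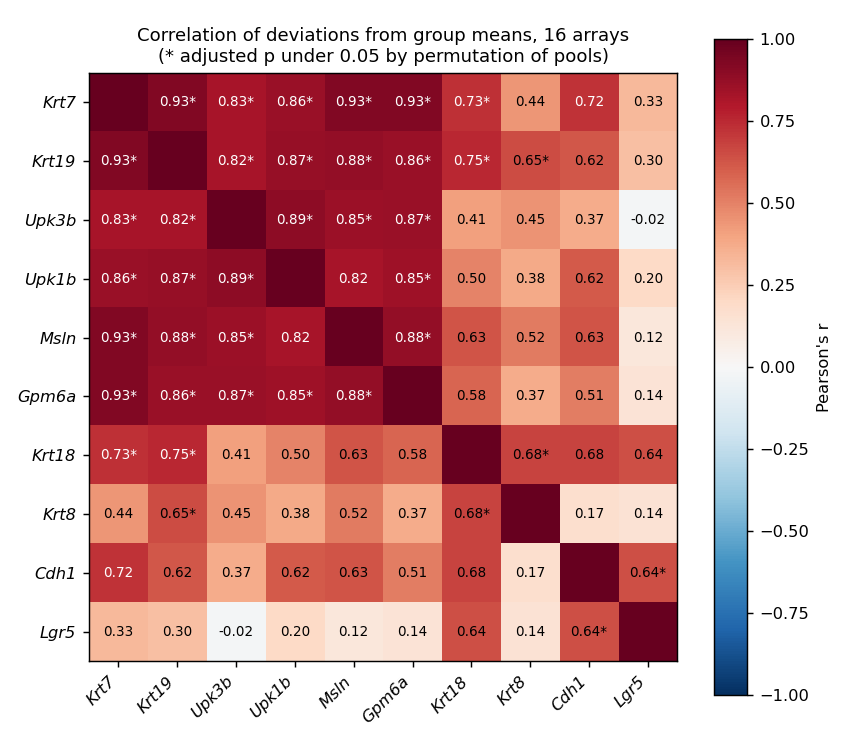
Pearson r between each pair of the 10 genes over deviations from the group means in 16 arrays, shown as colour from -1 to 1 with each value printed. Krt7, Krt19, Upk3b, Upk1b, Msln and Gpm6a form a block of r between 0.823 and 0.926.

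Among all other genes tested, the 8 with the highest mean r with the 10 were Ly6e (0.769), Tm4sf1 (0.754), Slpi (0.749), Epcam (0.745), Muc16 (0.740), Stk26 (0.736), Pkhd1l1 (0.733) and Rspo1 (0.732), over 16 arrays, where the median over all genes was -0.018. Epcam encodes an epithelial adhesion molecule, Muc16 a membrane mucin of mesothelial surfaces, Slpi a secreted protease inhibitor and Rspo1 an R-spondin, a ligand of Lgr5. Epcam, Muc16 and Rspo1 were also on the list of other surface epithelium genes, while Ly6e, Tm4sf1, Slpi, Stk26 and Pkhd1l1 were on none of the lists. None of the 8 passed between times in either arm. Epcam came nearest, at -0.85 (adjusted p = 0.108) with AMH and -0.92 (adjusted p = 0.0509) in controls.

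The other surface epithelium and mesothelium genes did not fall as a group between times. With AMH none of 13 was called, with a median of 0.25. In controls 1 was called higher and 2 lower, with a median of -0.04. The change of Pdpn, a mesothelial and lymphatic glycoprotein, was -0.43 (adjusted p = 0.0133) in controls. The other 2 called genes had means under the filter of 4.18 at one time and passed it through the time at which they were high, so their calls are given as a description. Nkain4 had mean log2 signals of 5.34 ± 0.60 at 24 h and 4.02 ± 0.38 at 12 h in controls, and Muc1, a membrane mucin, had 3.44 ± 0.85 at 24 h and 5.97 ± 0.71 at 12 h (SD, n = 4 each). Among 14 genes of cell junctions and keratin linkers, 2 were lower with AMH and 1 in controls. These were Pkp2, a desmosomal plakophilin (-0.79, adjusted p = 0.029), and Cdh2, N-cadherin (-0.37, adjusted p = 0.029), with AMH, and Cdh2 in controls (-0.45, adjusted p = 0.00544).

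Of 40 other keratins on the array, 9 passed the filter, and 2 of them, both type II, were lower at 24 h in both arms. Krt79 changed by -2.24 (adjusted p = 0.00232) with AMH and -2.02 (adjusted p = 0.00215) in controls. Krt76 had mean log2 signals of 4.39 ± 0.55 with AMH and 3.88 ± 0.92 in controls at 24 h, and of 6.52 ± 0.82 with AMH and 6.88 ± 0.33 in controls at 12 h (SD, n = 4 each). Its control mean at 24 h was under the filter of 4.18, which Krt76 passed through its 12 h arrays, so its calls too are a description. The other 7 were not called in either arm. Among 6 other intermediate filament genes, the nuclear lamins Lmnb1 and Lmnb2 were lower in both arms, at -0.91 and -0.76 with AMH and -0.83 and -0.73 in controls. Lmna was lower with AMH (-0.52), and Synm, which encodes synemin of muscle filaments, was higher in controls (1.53). No gene of these lists was called for AMH against control at 24 h or at 12 h.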

How the data were processed

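RNA of 16 samples of cultured mouse follicles had been hybridised to Affymetrix arrays. The deposited values are linear signal intensities per probe set made by the authors with MAS5, per the submitters' processing notes, and a version for it is not given in the sources used here. All arrays shared a trimmed mean of 150 with 2% trimmed, so scaling had already been applied. Detection calls were not used here.

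Signals were used as log2(signal + 1.46), the offset being the 10th percentile of the table. The array had 45101 probe sets including 64 controls, which were dropped. Of the rest, 34945 carried one gene symbol, 932 several and 9160 none in the supplied annotation table. Probe sets whose mean reached the 40th percentile (log2 4.18, signal 16.6) were kept, and the one with the highest mean stood for its gene, leaving 12172 genes. Limma 3.58.1 (R 4.3.3) was run over all of them, with variances moderated along the mean, with Benjamini-Hochberg adjustment and a threshold of 0.05. AMH effects used the 8 pairs of arrays as a block, since the labels say that both arms came from one pool and are comparable in pairs. Deviations from group means of paired arrays correlated at -0.437, 0.327, 0.2 and -0.287 for pairs 1 to 4 at 24 h and 0.299, 0.349, 0.56 and 0.214 at 12 h. Changes between times came from group means with no block. Correlations, their permutations and the promoter search used Python 3.11.15 with NumPy 2.4.6, pandas 2.3.3 and SciPy 1.17.1, and figures matplotlib 3.10.9. The fits were tested on simulated data.

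The genes, lists, tests and the rule for naming genes were chosen with earlier results of these data known. The rule named the 10 genes in every comparison, up to 4 called genes of each other list (for lists of other cell types fewer are named, the rest being given as counts), called keratins and the 8 genes most like the 10. Gene names and positions came from RefSeq tables of GRCm38.p6. The build behind the probe sets was not stated. Alternatives covered offset, filter, scaling, probe set handling, moderation, block, restricting the arrays fitted, and leaving out single replicates. Leaving out pairs 1 and 4 at 24 h was chosen after seeing the data.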

Additional observations from a re-analysis of the deposited data

Results flagged for a closer look

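In 40 groups of 4 arrays (10 genes in 4 groups), 2 held a lone array apart from the other 3, which chance gives in about 1 group in 20. Krt19 in replicate 1 of the AMH-treated follicles at 24 h had a log2 signal of 7.76, where the other 3 arrays lay between 8.63 and 8.80. Lgr5 in replicate 2 of the same group had 4.11, where the others lay between 4.98 and 5.12. The cause was not tested.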

How the results depend on the processing

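Over the 10 genes and all settings, 1005 of 1084 values kept their direction and their side of the threshold, 13 lost a call, 3 gained one and 63 turned sign. The falls of Krt8 and Krt18 between times were called in every setting. The cause of the changes below was not tested. The pairing changed one count between times: with the replicate block, 4 of the 10 genes were called with AMH in place of 2, the gains being Cdh1 (-0.89, adjusted p = 0.0495) and Gpm6a (1.18, adjusted p = 0.047), but at 24 h and 12 h the same number does not mark a shared pool. Without the replicate block 0 genes in all were called for AMH at 24 h in place of 2. That count was also 0 with no filter, quantile normalization, mean of probe sets, every probe set alone with no filter, or only arrays of that time, and 0 to 1 with a pair left out. At 12 h it was 1 with quantile normalization, and 1 with every probe set alone and no filter, where both choices changed together. The averaged count was 6 without 24 h pairs 1 and 4 (added after seeing the data) and 0 to 2 with one pair left out; the count for the difference was 1 with quantile normalization and 0 to 1 with one pair left out. Genes called between times with AMH numbered 564 with median centring and 516 to 948 with one array left out, against 1008; in controls, 2 to 4 of the 10 were called with one array left out. Quantile normalization turned Krt8 at 12 h (0.01), Krt7 at 24 h (0.00) and averaged Msln (0.02). Median centring turned Cdh1 at 24 h (0.02), averaged Msln (0.03) and Gpm6a (0.01), and the differences of Krt18 (0.09), Krt19 (0.08) and Upk3b (0.15); an offset of 16 gave Upk3b 0.03. The mean of probe sets turned Lgr5 at 24 h (-0.22), averaged Upk1b (-0.04), the difference of Upk3b (0.05) and Upk1b between times in controls (0.09). Without 24 h pairs 1 and 4, averaged Upk3b was -0.18, the difference of Cdh1 -0.01, and at 24 h Krt7 was -0.22, Upk3b -0.40, Msln -0.24, Lgr5 -0.15 and Gpm6a -0.02. With one pair left out, AMH effects at 24 h ranged from -0.08 to 0.15 for Krt7, -0.42 to 0.06 for Krt19, -0.43 to 0.34 for Upk3b, -0.37 to 0.07 for Cdh1 and -0.27 to 0.45 for Lgr5. At 12 h they ranged from -0.04 to 0.05 for Krt8 and -0.47 to 0.28 for Upk3b. Averages ranged from -0.21 to 0.19 for Upk3b, -0.09 to 0.12 for Upk1b, -0.15 to 0.16 for Msln and -0.13 to 0.04 for Gpm6a. Differences ranged from -0.14 to 0.08 for Krt18, -0.31 to 0.16 for Krt19, -0.48 to 0.51 for Upk3b and -0.12 to 0.32 for Cdh1. Between times with one array left out, Krt7 with AMH ranged from -0.56 to 0.10, and in controls Krt19 from -0.64 to 0.01 and Upk1b from -0.36 to 0.42. Signals near the filter, such as Lgr5 at 24 h, limit what can be resolved.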
